A study of Mus musculus with 12 samples.

Results

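The loci of the 6 enzymes that write and remove DNA methylation, the methyltransferases Dnmt1, Dnmt3a and Dnmt3b and the dioxygenases Tet1, Tet2 and Tet3, were examined by reduced representation bisulfite sequencing (RRBS) of mouse blood stem and progenitor cells, a method that reads the CpGs near MspI sites and gives, for each, the percent of reads that stayed methylated. In a window around each gene (build mm9), the CpGs kept ran from 20700507 to 20763339 on chromosome 9 for Dnmt1, from 3797458 to 3924954 on chromosome 12 for Dnmt3a, from 153473710 to 153512358 on chromosome 2 for Dnmt3b, from 62255004 to 62353884 on chromosome 10 for Tet1, from 133115167 to 133218818 on chromosome 3 for Tet2 and from 83316966 to 83408513 on chromosome 6 for Tet3. A CpG was kept when it held at least 10 reads, with its strands summed, in at least 2 libraries of each group. This left 991 of the 1569 CpGs listed there in any library, out of 1157487 autosomal CpGs kept by the same coverage rule in the whole tables. Dnmt1 had 147 of them, Dnmt3a 299, Dnmt3b 101, Tet1 135, Tet2 93 and Tet3 216, and 808 were read in every library.

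The cells were bone marrow cells sorted as LSK (no lineage markers, Sca1 and cKit present), the fraction that holds blood stem cells and early progenitors, from C57BL/6 mice of 6 months. The 12 libraries form 4 groups of 3: Tet2 knockout with Nras G12D in mice with leukemia, Tet2 knockout with Nras G12D in mice without leukemia (the nonleukemic double mutant), Tet2 knockout alone, and Nras G12D alone. The 9 libraries of the first 3 groups thus all carry the Tet2-/- label, and the series design describes the double mutant as conditional and limited to blood-forming tissue, without naming the Cre driver. Titles beginning with L, together with the design text, put 3 libraries in the leukemic group, which are therefore called labelled leukemic. Their descriptions also carry the letters TN-BMT, which the labels do not expand. Wild-type cells, named in the design, were not analysed here. Nothing in the labels says that the replicates came from separate animals, so the p-values given reflect variation among these libraries only, which may be technical. In the nonleukemic and Tet2 knockout groups, the counts of Y chromosome positions given below differ between replicates, so those libraries are not all repeats of the same sample.

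Dnmt1 copies methylation onto the new strand after replication, and Dnmt3a and Dnmt3b set methylation at CpGs that had none. Tet enzymes oxidise 5-methylcytosine to 5-hydroxymethylcytosine and further, which leads to loss of the mark. In blood stem cells of mice, loss of Dnmt3a or of Tet2 is known to expand the stem cell pool, and both genes are often mutated in human myeloid disease. Bisulfite conversion reads 5-methylcytosine and 5-hydroxymethylcytosine alike, so the percentages below are the sum of both. RNA was not analysed here, and a methylation level is not a level of expression.

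Libraries held 96300485 to 199736369 reads over listed cytosines, and the median coverage of the members was 68 to 162 reads per library. Positions on the Y chromosome numbered 349 in nonleukemic replicate 1, 360 in Tet2 knockout replicate 1 and 251 in Tet2 knockout replicate 2, and 2 to 18 in the other libraries. A flip is a strand position whose level in 1 library stays below 10% while all 11 others exceed 70%, or the opposite. There were 1005, 79 and 3118 flips in the libraries labelled leukemic, 940 in Tet2 knockout replicate 2, 157 in its replicate 3, 170 in Nras G12D replicate 3 and 0 to 2 in the rest. These were counted over the 999893 autosomal strand positions listed in every library. With strands summed, 2 of the 808 member CpGs read in every library held such a flip, in Tet2 knockout replicate 2 and replicate 3. Results that rest on these libraries are given below without them where that ended a call.

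The deleted gene was examined first. At 6 strand positions inside the Tet2 window, from 133149153 to 133149261 on chromosome 3, reads were listed in every library labelled leukemic and every Nras G12D library and in almost no other. This stretch of 109 bp lies 58.1 to 58.2 kb downstream of the Tet2 start placed below, and the gene is 81.5 kb long in build GRCm38. Summed over the 6 positions, the libraries labelled leukemic held 620, 431 and 222 reads, the nonleukemic double mutants 0, 0 and 38, the Tet2 knockouts 20, 0 and 0, and the Nras G12D libraries 588, 641 and 449. A read that covers several positions counts at each, so these sums exceed the number of reads. The highest count at a single position was 147 in labelled leukemic replicate 1, 13 in nonleukemic replicate 3 and 10 in Tet2 knockout replicate 1. In this stretch the libraries labelled leukemic were thus like Nras G12D and unlike the other libraries with the Tet2-/- label, and no read sum of either pair of groups overlapped with the other pair. Of the summed reads, 98.4%, 94.9% and 89.2% were methylated in the libraries labelled leukemic and 96.3%, 95.2% and 98% in Nras G12D, against 2.63% in nonleukemic replicate 3 and 20% in Tet2 knockout replicate 1. The last value joins 40% and 0% at 2 positions with 10 reads each. A position is listed from 10 reads on, so an unlisted one may still hold up to 9.

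**Figure D1:**
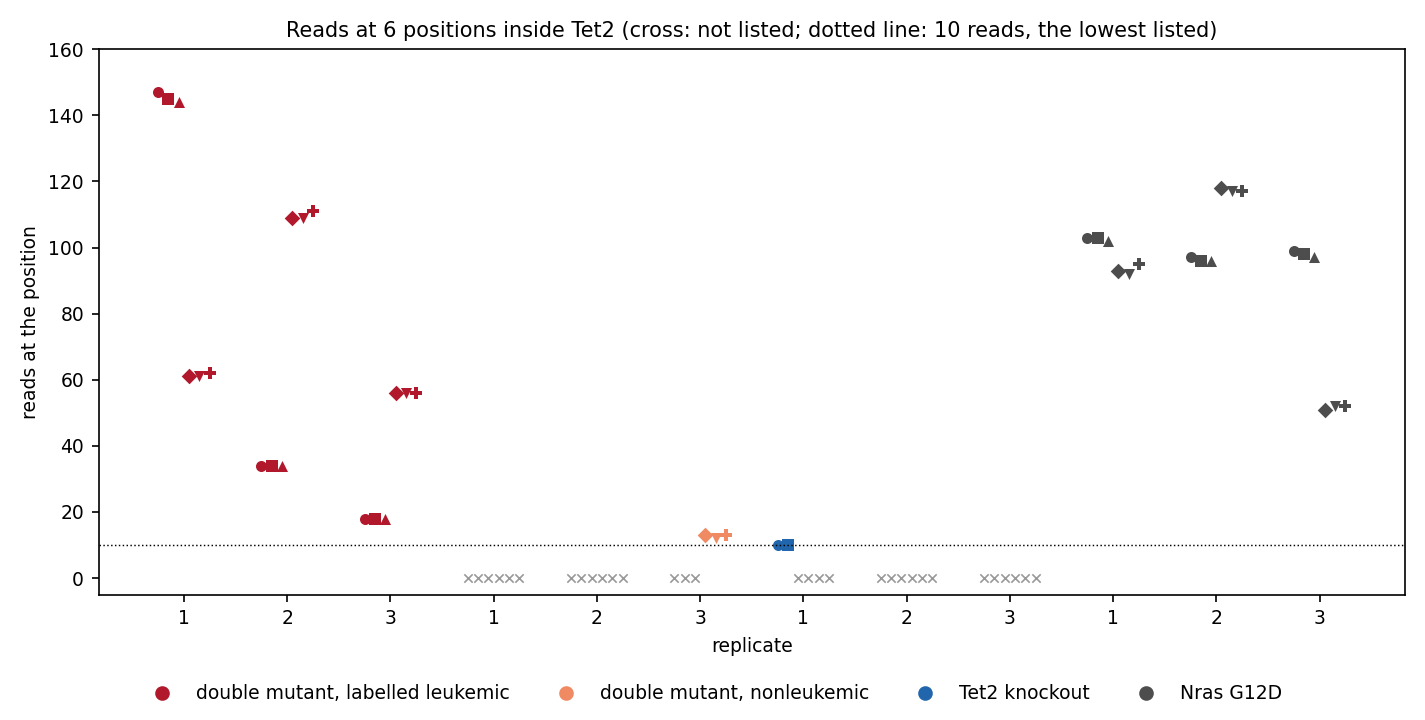
Reads at each of the 6 positions inside Tet2 (marker shapes) in the 12 libraries, with replicates on the horizontal axis and a cross where a position is not listed. All 6 positions are listed in each library labelled leukemic and each Nras G12D library, against 3 in nonleukemic replicate 3 and 2 in Tet2 knockout replicate 1.

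Only position 133149185 was listed in all libraries of both groups and in none of the others, and at a minimum of 20 reads there were 3 such positions. Over the whole Tet2 window, 186 strand positions were listed, 63 of them in no library of at least 1 group. The 6 positions are among these 63, and the other 57, 3 of them in the same stretch, were listed in some libraries only. On all autosomes, 298 positions were listed in all libraries labelled leukemic and all Nras G12D libraries and in no other, 265 of them on chromosome 3 between 33042237 and 153522170. The nearest ones outside the window lie at 133052943 and 133417557, and 10 lie in the window or within 1000 kb of it. Within 5 Mb of the window there were 189, so most of those on chromosome 3 lie around Tet2. The reverse, listed in all nonleukemic and Tet2 knockout libraries only, held at 254 positions, 177 on chromosome 3 and 0 in the window. Of the reverse positions, 1 lay within 1000 kb of the window and 38 within 5 Mb. Whether the stretch belongs to the deleted part of Tet2 was not tested. Wherever a library labelled leukemic is set against a nonleukemic or Tet2 knockout one below, leukemia and these differences cannot be told apart. The same positions separate Nras G12D from the nonleukemic and Tet2 knockout libraries. In those comparisons the labelled genotype and these differences cannot be told apart either.

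The promoters placed for the 6 genes were at 2.69% methylation or less in every library, with 1 exception at Dnmt3a. RefSeq promoter sequences (build GRCm38.p6, 250 bases before to 50 after a start) were placed in mm9 by the spacing of their CpGs, and 8 of 10 could be placed: 1 of Dnmt1, 3 of Dnmt3a, and 1 each of Dnmt3b, Tet1, Tet2 and Tet3. The 250 bases before the start of 4 of them are shown because they carry the CpGs behind this result and differ in density. Capitals mark the CpGs that were listed in at least 1 library, and lower-case cg pairs are CpGs without a listed position. Each line gives the gene, the mm9 position and strand, and the sequence from 5′ to 3′.
Dnmt1, chr9:20757068-20757317, minus strand: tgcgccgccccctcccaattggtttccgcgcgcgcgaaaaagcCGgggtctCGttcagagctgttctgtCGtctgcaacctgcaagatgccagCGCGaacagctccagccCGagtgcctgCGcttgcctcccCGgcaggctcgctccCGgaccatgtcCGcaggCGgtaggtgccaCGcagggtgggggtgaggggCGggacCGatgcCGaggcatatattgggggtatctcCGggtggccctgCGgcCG
Dnmt3a, chr12:3891494-3891743, plus strand: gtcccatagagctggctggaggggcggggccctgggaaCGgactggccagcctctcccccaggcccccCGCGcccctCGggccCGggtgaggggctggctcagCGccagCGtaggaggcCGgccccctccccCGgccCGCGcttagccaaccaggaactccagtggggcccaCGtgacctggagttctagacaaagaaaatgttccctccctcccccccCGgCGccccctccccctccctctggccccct
Tet1, chr10:62350073-62350322, minus strand: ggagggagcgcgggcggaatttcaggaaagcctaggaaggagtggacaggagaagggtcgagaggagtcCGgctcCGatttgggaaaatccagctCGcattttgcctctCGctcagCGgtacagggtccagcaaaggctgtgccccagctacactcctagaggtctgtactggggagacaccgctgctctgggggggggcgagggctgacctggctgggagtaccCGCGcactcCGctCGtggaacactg
Tet2, chr3:133207355-133207604, minus strand: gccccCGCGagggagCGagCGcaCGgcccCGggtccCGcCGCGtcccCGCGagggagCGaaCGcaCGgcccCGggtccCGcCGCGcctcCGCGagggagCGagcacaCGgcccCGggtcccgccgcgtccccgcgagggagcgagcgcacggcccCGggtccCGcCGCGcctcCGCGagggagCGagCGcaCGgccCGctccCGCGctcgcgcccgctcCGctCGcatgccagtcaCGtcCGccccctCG
MspI cuts at CCGG, which reads the same on both strands, and these stretches hold 4, 4, 1 and 4 such sites in the order shown. CCGG occurs in 47.1% of the same 250 bases of the 32851 RefSeq promoters.

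At the Tet2 start (first base 133207354), 46 CpGs averaged 0.361%, 0.198% and 0.158% in the libraries labelled leukemic, 0.147%, 0.0189% and 0.0173% in the nonleukemic double mutants, 0.0537%, 0% and 0.0988% in Tet2 knockout and 0.0741%, 0.0852% and 0.0744% in Nras G12D. All 12 libraries were under 1%. The maintenance gene Dnmt1 (first base 20757067, 23 CpGs) did not pass 0.315% in any library, and Dnmt3b (first base 153475185, 13 CpGs) did not pass 0.723%. The Dnmt3a starts at 3806980 and 3807160 reached at most 0.394% and 0.804%. Tet1 (first base 62350072, 10 CpGs) and Tet3 (first base 83391672, 21 CpGs) reached 2.69% in Tet2 knockout replicate 2 and 2.59% in Nras G12D replicate 3.

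The internal Dnmt3a start at 3891744, within the gene and downstream of both others, held the exception. Its 9 CpGs averaged 0.0547%, 0.773% and 0.878% in the libraries labelled leukemic, 0.258%, 0.0970% and 0.0698% in the nonleukemic double mutants, 0.0703%, 0% and 11.4% in Tet2 knockout and 0.505%, 0.401% and 1.16% in Nras G12D. The value of 11.4% came from the CpG at 3891577, at 90.9% of 11 reads in Tet2 knockout replicate 3 and at 0% to 3.13% in the other 11 libraries. No promoter CpG of the 8 starts was called in any comparison.

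**Figure D2:**
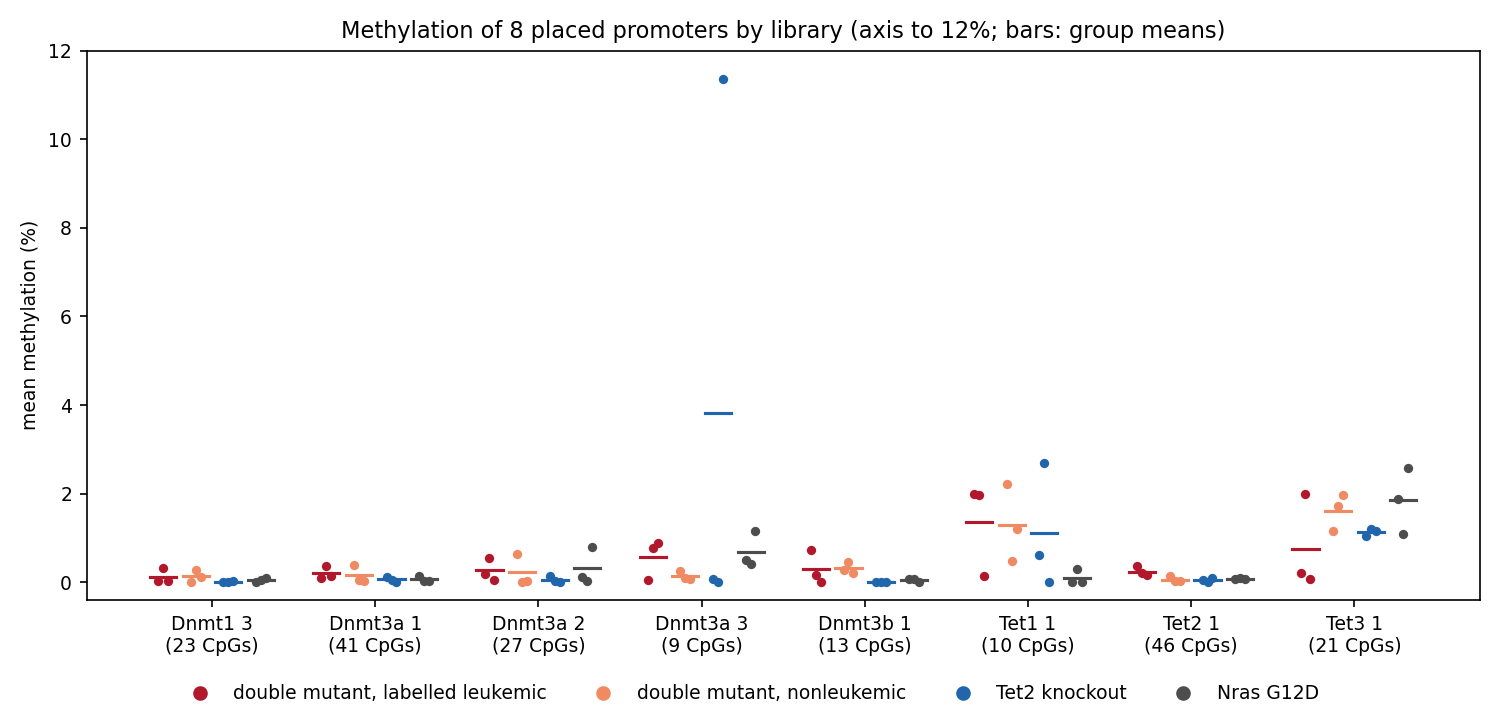
Mean methylation (percent, axis to 12%) of the member CpGs in each placed promoter, 1 point per library and a bar for the group mean. All points are under 3% except Tet2 knockout replicate 3 at the internal Dnmt3a start (Dnmt3a 3), at 11.4%.

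The table gives outermost starts that lie upstream of the first placed ones in GRCm38, by 7.3 kb for Dnmt1, 5.4 kb for Dnmt3a and 15.5 kb for Tet3. The 2 RefSeq promoters of Dnmt1 that could not be placed hold 2 and 12 CpGs. Upstream of the placed Dnmt1 start, the tile at 20763000, 6.4 kb upstream, was at 97.2%, 95.0%, 98.3% and 94.7% in the group means of the libraries labelled leukemic, the nonleukemic double mutant, Tet2 knockout and Nras G12D. The tile of Tet3 at 83406000, 14.8 kb upstream of the placed start, held 81 CpGs and was at 0.1% to 0.5% in the group means. Dnmt1 thus had methylated CpGs upstream of its placed start, and Tet3 a second unmethylated stretch.

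Among 29 other genes of DNA methylation and demethylation (such as Uhrf1, which brings Dnmt1 to hemimethylated DNA, Tdg, which removes the oxidised bases, and Idh1 and Idh2, whose product 2-oxoglutarate the Tet enzymes need), 23 were in the table and 15 had at least 1 promoter that could be placed, 18 promoters in all. The 17 on autosomes were under 5% in every library, at most 2.32%. Among them, 2 promoters of Kdm2b overlap and share the same 26 CpGs. Placing needed at least 10 CpGs, so CpG-poor promoters, such as those of Dnmt3l with 3 to 6 CpGs, could not enter. The share of all placeable promoters under 5% was not computed. The 18th, of Zbtb33 on the X chromosome, which encodes a protein that binds methylated DNA, was at 27.5%, 23.1% and 23.5% in the libraries labelled leukemic, 0.229%, 29.6% and 24.2% in the nonleukemic double mutants, 0.387%, 2.36% and 19.4% in Tet2 knockout and 25.7%, 24.3% and 20.2% in Nras G12D. Its 3 lowest libraries are those with Y chromosome positions. The list was chosen with earlier results of these data known.

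By their level averaged over the 12 libraries, 681 members lay under 20%, 27 between 20% and 80% and 283 over 80%. That is 68.7% of the members under 20% and 28.6% over 80%, against 58.3% and 33.8% of the whole tables. CpGs under 20% numbered 76 at Dnmt1, 228 at Dnmt3a, 85 at Dnmt3b, 91 at Tet1, 71 at Tet2 and 130 at Tet3, and CpGs over 80% numbered 67, 59, 13, 38, 22 and 84 in the same order. The Tet2 locus had no CpG between 20% and 80%, and Dnmt3a had 12 of the 27.

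**Figure D3:**
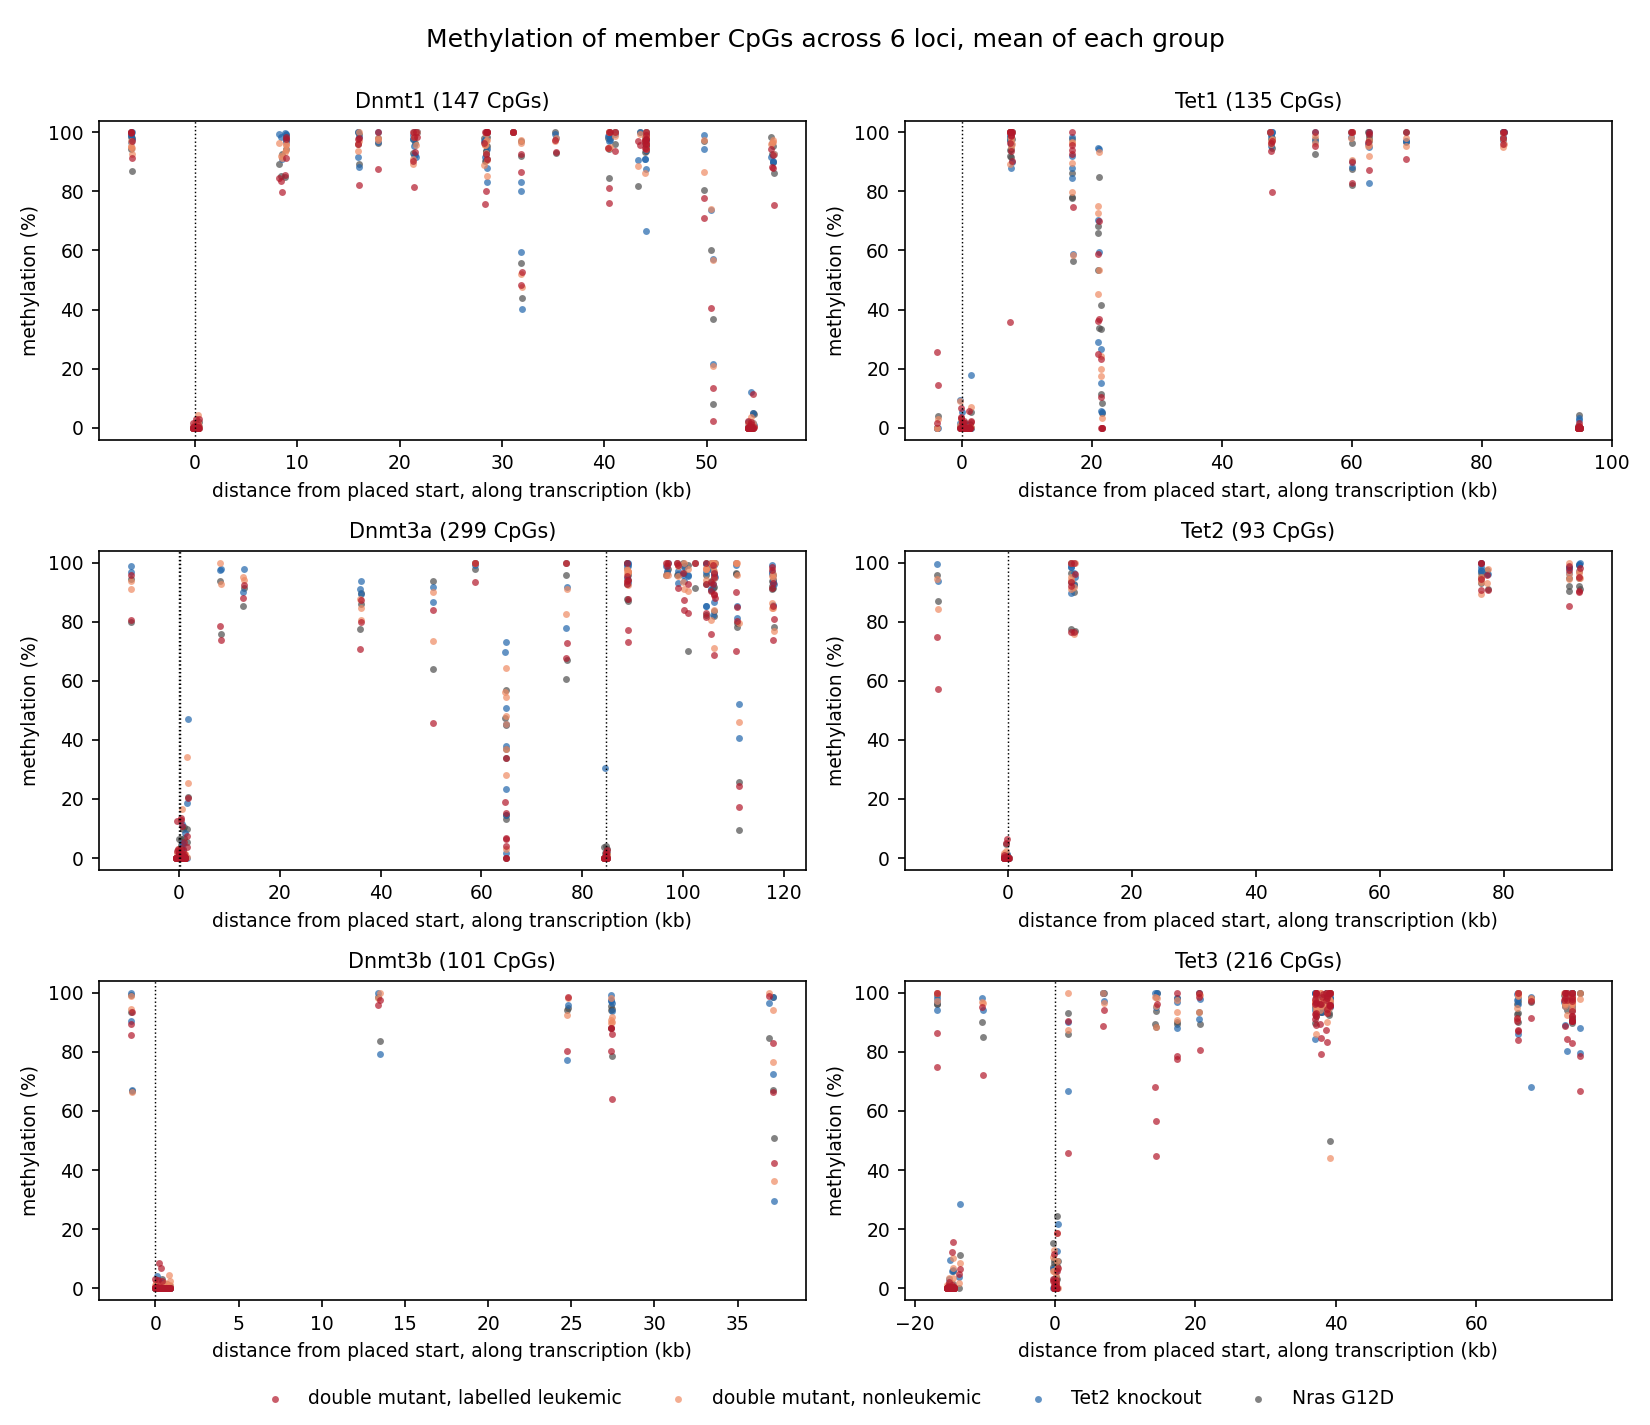
Mean methylation of each group (percent) at every member CpG of the 6 loci, against the distance along transcription from the placed start (kb), with dotted lines at placed starts. CpGs near the starts lie close to 0% and most of the others over 80%. Further stretches near 0% lie 14.8 kb upstream at Tet3 and 54.6 kb downstream at Dnmt1, the latter past the gene's end at its GRCm38 length. Points between these levels cluster at a few places, 1 of them 64.5 kb into Dnmt3a.

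At the CpGs between 20% and 80% the libraries labelled leukemic were below all others, as they were in the whole tables. The 23 such members read in every library averaged 31.0%, 38.2% and 39.1% in the libraries labelled leukemic, 57.3%, 54.7% and 58.1% in the nonleukemic double mutants, 56.4%, 61.7% and 55.0% in Tet2 knockout and 42.9%, 43.7% and 55.4% in Nras G12D. The same class over the whole tables was at 46.7% ± 1.62, 57.6% ± 0.362, 59.4% ± 1.64 and 54.8% ± 0.206 (SD, n = 3 each, groups in the same order). The median difference of the labelled leukemic minus the nonleukemic libraries was -20.4 points over the 27 members and -10.4 points over all CpGs of the class, and 81.5% of the members against 70.9% of all were on the lower side. Of the 27 members, 6 lie in the Dnmt3a tile described below, where CpGs share reads, and no test was made of these class averages.

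At the 216 members over 80% read in every library, the libraries labelled leukemic averaged 94.7%, 90.3% and 92.0%, the nonleukemic double mutants 95.6%, 94.9% and 95.4%, Tet2 knockout 96.4%, 95.4% and 94.9% and Nras G12D 94.6%, 94.2% and 94.0%. Those labelled leukemic overlapped with Nras G12D only. Over the whole tables this class was at 91.1%, 87.5% and 90.5% in the libraries labelled leukemic, below every other library (93.9% to 95.6%). Within the Tet2 locus, 22 such CpGs stood at 90.7%, 91.1% and 90.0% in the libraries labelled leukemic, 92.5%, 95.0% and 93.9% in the nonleukemic double mutants, 96.1%, 98.3% and 97.2% in Tet2 knockout and 94.8%, 93.8% and 89.4% in Nras G12D. There Tet2 knockout was above every library of the other groups, and the nonleukemic double mutant minus Tet2 knockout was -3.39 points. Over the whole tables Tet2 knockout was at 95.4%, 95.6% and 94.9%, also above every other library, and the same difference was -0.603 points. At Tet1, 28 CpGs averaged 95.5% ± 2.42, 95.8% ± 0.690, 95.9% ± 0.456 and 95.5% ± 1.17 (SD, n = 3 each) in the labelled leukemic, nonleukemic, Tet2 knockout and Nras G12D libraries, closer together than the spread of the first.

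**Figure D4:**
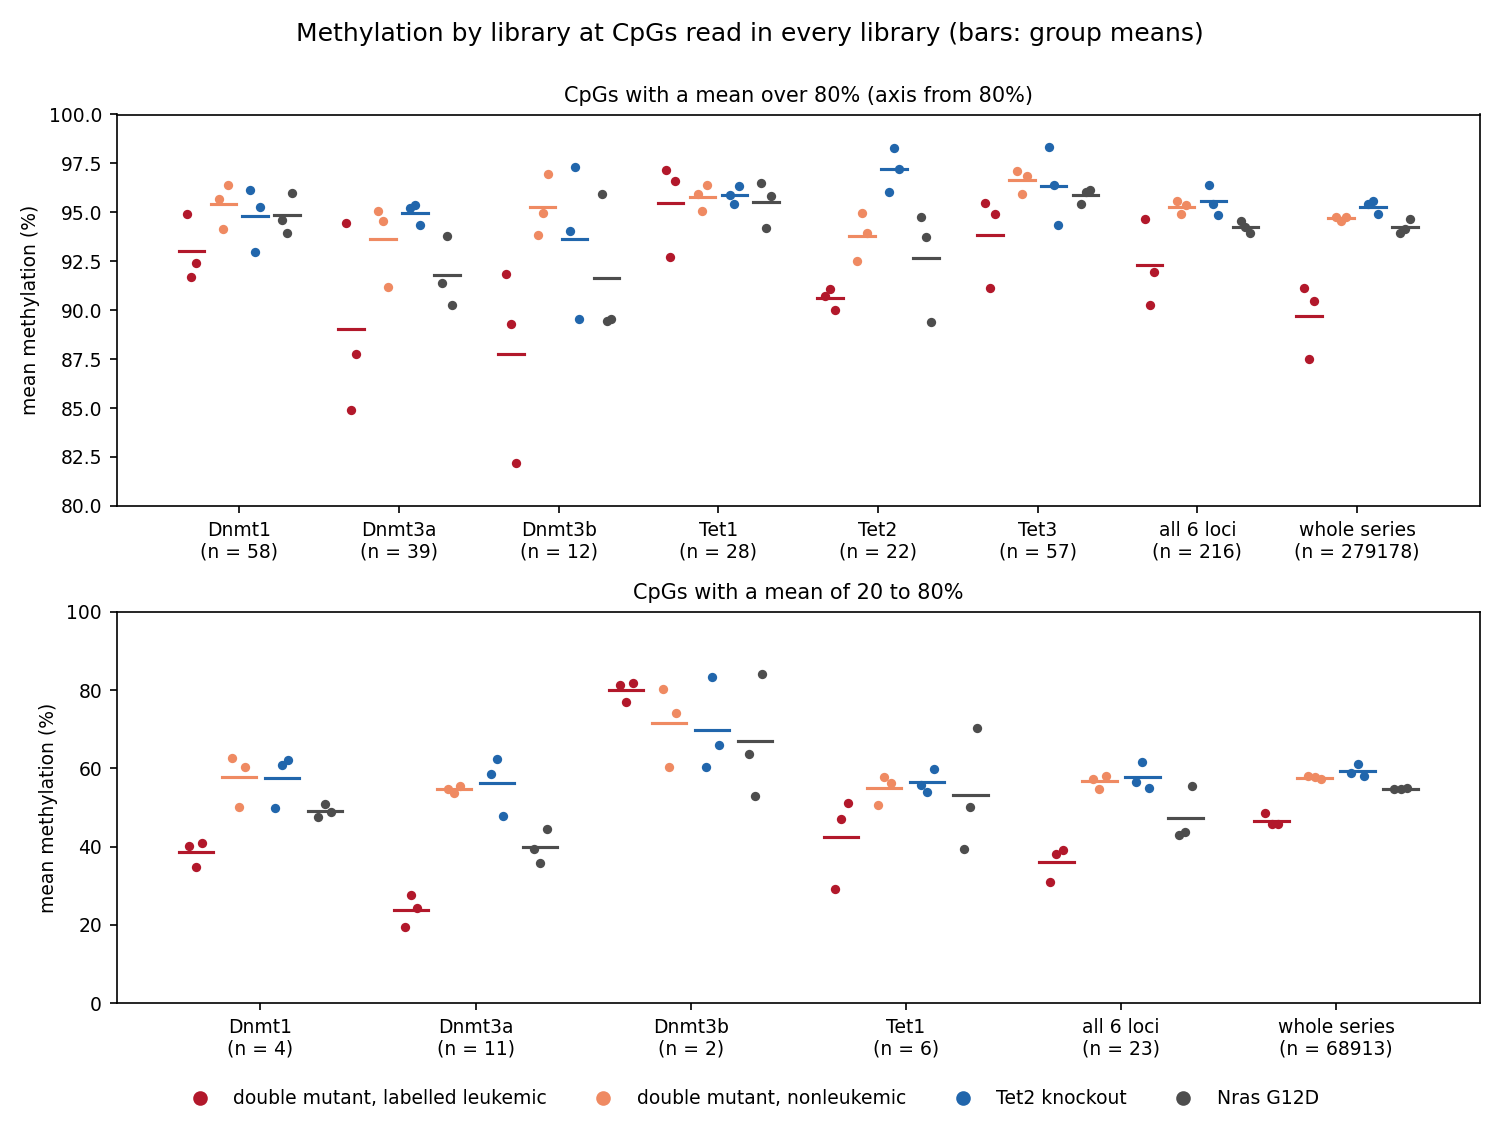
Mean methylation by library (percent) of members read in every library, with a mean over 80% (upper panel, axis from 80%) or of 20 to 80% (lower panel), by locus, over all 6 loci and over the whole tables; bars are group means and n is the number of CpGs. The libraries labelled leukemic are the lowest group at Dnmt3a in both panels, at 89.0% and 23.7%.

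Differences were tested for each CpG and for 1000 bp tiles with at least 3 CpGs, 66 of 105607 tiles, in a quasi-binomial model over all 12 libraries with the dispersion moderated as in limma and Benjamini-Hochberg adjustment over the whole table. A call needed an adjusted p under 0.05 and 25 points at a CpG or 10 points in a tile. For the libraries labelled leukemic, 3 member tiles were called against the nonleukemic double mutant (4.55% of the 66, where 4.22% of all tiles were called), 4 against Tet2 knockout (6.06%, where 7.82% of all were called) and 1 against Nras G12D (1.52%, where 2.32% of all were called). These shares are close to those of all tiles. Every call was lower in the libraries labelled leukemic, which the 3 comparisons share. Most calls over all tiles were lower too, 4338 of 4459, 8100 of 8261 and 2339 of 2447 in the same order.

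Single CpGs gave 1 call against the nonleukemic double mutant (0.132% of all CpGs were called), 1 against Tet2 knockout (0.309% of all) and 0 against Nras G12D (0.0503% of all, and by limma 0 members and 0.00631% of all). In that comparison 88 members, 8.88%, had an unadjusted p under 0.05, against 12.9% of all CpGs. Among the groups not labelled leukemic, no member CpG and no member tile was called by the quasi-binomial model or by limma. Between the nonleukemic double mutant and Tet2 knockout, 0% of all CpGs and 0.00189% of all tiles were called, and 46 member CpGs (4.64%, against 6.04% of all) and 1 member tile (1.52%, against 3.22% of all) had an unadjusted p under 0.05. Between the nonleukemic double mutant and Nras G12D, 0.000778% and 0.00473% were called, and 44 CpGs (4.44%, against 6.01%) and 2 tiles (3.03%, against 2.73%) had such a p. Between Tet2 knockout and Nras G12D, 0.000432% and 0% were called, and 46 CpGs (4.64%, against 6.82%) and 3 tiles (4.55%, against 5.74%) had such a p. The members' median difference was 0 points over CpGs in all 6 comparisons, as over all CpGs. CpGs under 20%, 68.7% of the members, fix this median. For the labelled leukemic minus the nonleukemic libraries it was -2.288 points at members over 80%, against -2.515 points at all CpGs over 80%. Over tiles the median difference of the labelled leukemic minus the nonleukemic libraries was -1.80 points in the members and -2.44 points in all tiles.

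Dnmt3a held the largest difference among the called tiles, inside the gene between its first starts and the internal one. In the tile of chromosome 12 from 3871000 to 3871999, 64.5 kb downstream of its start at 3806980 and 20.2 kb upstream of the internal one, 8 CpGs with 670 to 1443 reads per library were at 7.28%, 16.4% and 9.28% in the libraries labelled leukemic. They were at 50.3%, 45.1% and 46.3% in the nonleukemic double mutants, at 50.1%, 40.9% and 37.3% in Tet2 knockout and at 23.6%, 33.3% and 46.6% in Nras G12D. Every library labelled leukemic was below every other library. The tile was at 10.98% ± 4.78 in the libraries labelled leukemic and 47.2% ± 2.72 in the nonleukemic double mutant (SD, n = 3 each), a difference of -36.3 points (quasi-binomial model, adjusted p = 0.000968). The differences were -31.8 points from Tet2 knockout (42.8% ± 6.57, adjusted p = 0.0010) and -23.5 points from Nras G12D (34.5% ± 11.6, adjusted p = 0.0106).

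Its CpGs did not all behave alike. The CpG at 3871815 was at 0%, 10.9% and 0.889% in the libraries labelled leukemic, 63.3%, 31.9% and 40.8% in the nonleukemic double mutants, 50.0%, 62.6% and 39.2% in Tet2 knockout and 19.1%, 27.0% and 55.5% in Nras G12D. The CpG at 3871853 was called against Tet2 knockout, at 12.4%, 4.62% and 28.6% in the libraries labelled leukemic, 51.1%, 45.7% and 47.1% in the nonleukemic double mutants, 55.0%, 98.9% and 65.7% in Tet2 knockout and 32.9%, 38.8% and 63.7% in Nras G12D. Its difference from Tet2 knockout was -57.9 points (quasi-binomial model, adjusted p = 0.0480). Leaving out any 1 library other than labelled leukemic replicate 3 ended this call (adjusted p of 0.0513 to 0.125 in that model). The CpG at 3871865 was at most 9.52% in any library. Tile calls were lost with limma on log ratios (adjusted p of 0.107 against the nonleukemic double mutant, 0.0541 against Tet2 knockout and 0.205 against Nras G12D, the other alternatives ranging down to 0.000855, 0.00085 and 0.00725). They were also lost against Tet2 knockout without the 3 libraries with Y chromosome positions (adjusted p of 0.112), and against Nras G12D without its replicate 2 or 3 (0.0601 and 0.0559) or in a fit of the 6 libraries alone (0.0577). The call at the single CpG ended in 15 of 21 alternatives (adjusted p up to 0.351), among them without the 3 libraries with Y chromosome positions (0.135).

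**Figure D5:**
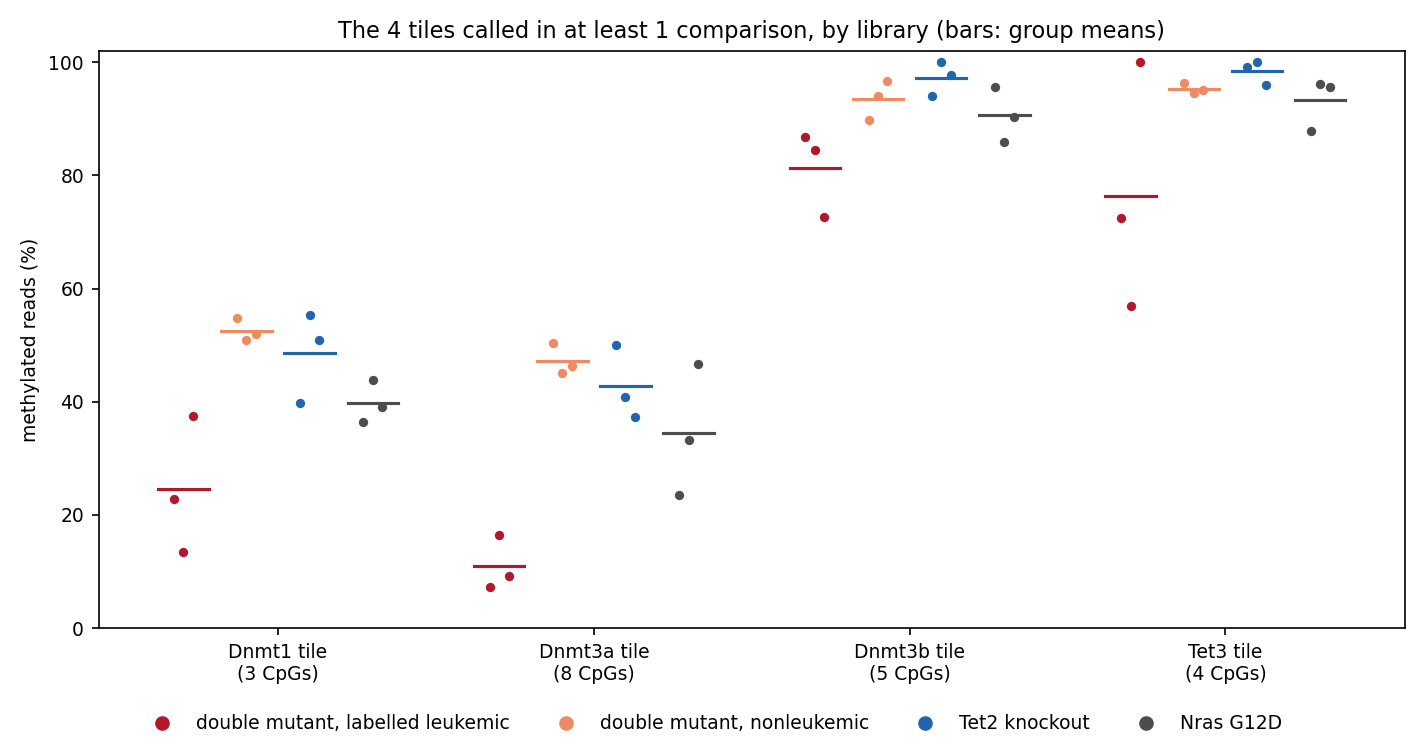
Percent of methylated reads by library in the 4 tiles called in at least 1 comparison, with bars for group means. In the Dnmt3a tile the libraries labelled leukemic lie between 7.28% and 16.4%, below all others, and in the Tet3 tile labelled leukemic replicate 3 lies at 100%.

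For Dnmt1 the called tile was on chromosome 9 from 20706000 to 20706999, 50.6 kb downstream of the placed start. The gene is 52.7 kb long in GRCm38, 7.3 kb of it before that start, so at equal length in mm9 the tile would lie past its end. Its 3 CpGs (114 to 289 reads) were at 22.7%, 13.5% and 37.4% in the libraries labelled leukemic, 54.7%, 50.9% and 51.9% in the nonleukemic double mutants, 39.7%, 55.3% and 50.9% in Tet2 knockout and 36.4%, 43.9% and 39.1% in Nras G12D. All libraries labelled leukemic were below both other Tet2-/- groups, and their range overlapped with Nras G12D. The differences were -28.0 points from the nonleukemic double mutant (adjusted p = 0.0311 in the quasi-binomial model) and -24.1 points from Tet2 knockout (adjusted p = 0.0388). Both calls ended, in 8 and 13 of 21 alternatives (adjusted p up to 0.248 and 0.355), among them without labelled leukemic replicate 2 (0.0709 and 0.0947), without nonleukemic replicates 1, 2 or 3 (0.117, 0.0949 and 0.130, and 0.0583, 0.0582 and 0.0590), with the replicate number as a block (0.0540 and 0.0546) and without the 3 libraries with Y chromosome positions (0.161 and 0.355). Against Tet2 knockout the call also went without labelled leukemic replicate 1 (0.0515), Nras G12D replicate 1 or 2 (0.0548 and 0.0541) and Tet2 knockout replicate 2 or 3 (0.138 and 0.0982).

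For Dnmt3b the tile of chromosome 2 from 153502000 to 153502999, 27.3 kb downstream of the start in a gene of 38.3 kb, was called against Tet2 knockout. Its 5 CpGs (326 to 658 reads) were at 86.7%, 84.4% and 72.7% in the libraries labelled leukemic, 89.7%, 93.9% and 96.6% in the nonleukemic double mutants, 94.1%, 100% and 97.7% in Tet2 knockout and 95.7%, 85.9% and 90.3% in Nras G12D. The libraries labelled leukemic were below every library of the other Tet2-/- groups and overlapped with Nras G12D. The difference from Tet2 knockout was -16.0 points (adjusted p = 0.0219 in the quasi-binomial model), and that from the nonleukemic double mutant -12.1 points (adjusted p = 0.119). Labelled leukemic replicate 3 was the lowest. The call ended in 6 of 21 alternatives, among them without the 3 libraries with Y chromosome positions and without Tet2 knockout replicate 2 or 3 (adjusted p of 0.0684 and 0.0746). It also ended without 3 libraries with flips, labelled leukemic replicate 3, Tet2 knockout replicate 2 and Nras G12D replicate 3 (0.0843, with -10.3 points).

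Of the dioxygenases, Tet3 had 1 called tile, on chromosome 6 from 83377000 to 83377999, 14.2 kb downstream of the placed start. Its 4 CpGs (68 to 359 reads) were at 72.4%, 56.9% and 100% in the libraries labelled leukemic, 96.3%, 94.6% and 95.0% in the nonleukemic double mutants, 99.2%, 100% and 96.0% in Tet2 knockout and 87.8%, 96.2% and 95.7% in Nras G12D. The groups overlapped, and labelled leukemic replicate 3 had reads at 1 of the 4 CpGs only, the one at 83377185, which was at 89.5% or more in every library. At the CpG at 83377321, labelled leukemic replicates 1 and 2 were at 61.3% and 27.9%, against 90.8%, 88.9% and 85.9% in the nonleukemic double mutants. The tile differed by -18.9 points from the nonleukemic double mutant (adjusted p = 0.0158 in the quasi-binomial model) and by -22.0 points from Tet2 knockout (adjusted p = 0.00427). The first call ended in 7 of 20 alternatives (adjusted p up to 0.647), among them without labelled leukemic replicate 2 (0.0715), without nonleukemic replicate 1, 2 or 3 (0.0756, 0.0711 and 0.0715) and without the 3 libraries with Y chromosome positions (0.108), and the second in 3 of 20, with the highest adjusted p, 0.232, without the libraries with Y chromosome positions. The differences were -9.11 and -12.2 points without labelled leukemic replicate 2, and -30.7 and -33.8 points without its replicate 3.

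The single Tet3 CpG called against the nonleukemic double mutant, at 83408462 and 16.8 kb upstream of the placed start, rested on few reads. It was at 100%, 59.3% and 65.2% in the libraries labelled leukemic (12, 27 and 89 reads) and at 100%, 100% and 100% in the nonleukemic double mutants (28, 58 and 43 reads), at 98.5% and 98.3% in the 2 Tet2 knockout libraries that read it, and at 98.2%, 100% and 100% in Nras G12D. From the nonleukemic double mutant this is a difference of -25.2 points (adjusted p = 0.0419). The groups overlapped, and the call ended in 15 of 20 alternatives, among them without the 3 libraries with Y chromosome positions. It also ended without 3 of the libraries with flips, those named at Dnmt3b (adjusted p of 0.110). Of single libraries, leaving out labelled leukemic replicate 3, Tet2 knockout replicate 1 or 3, or any nonleukemic or Nras G12D replicate ended it too. Without labelled leukemic replicate 1 the difference was -37.8 points.

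No tile was called at Tet1 or Tet2. The Tet1 tile with the widest spread of group means, on chromosome 10 from 62329000 to 62329999 (3 CpGs, 130 to 542 reads) and 20.6 kb downstream of the start, was at 43.0%, 55.0% and 59.9% in the libraries labelled leukemic, 65.6%, 69.1% and 67.8% in the nonleukemic double mutants, 62.6%, 65.0% and 85.4% in Tet2 knockout and 52.2%, 58.2% and 79.7% in Nras G12D. The libraries labelled leukemic did not overlap with the other Tet2-/- groups, yet the differences of -14.9 and -18.4 points had adjusted p of 0.255 and 0.204 in the quasi-binomial model. Tiles in which the libraries labelled leukemic lay below all nonleukemic ones numbered 11 of 66 (16.7%), against 19.9% of all tiles, and those in which they lay above numbered 2 (3.03%), against 2.62%. The like counts were 12 (18.2%, against 19.4% of all) and 4 (6.06%, against 2.14%) toward Tet2 knockout, and 7 (10.6%, against 14.9%) and 4 (6.06%, against 2.86%) toward Nras G12D. Toward Tet2 knockout the 4 tiles above differed by 7.71 (Dnmt1), 0.313 (Dnmt3a), 12.4 (Tet1) and 0.200 points (Tet2). Toward Nras G12D they differed by 2.85 (Dnmt1), 0.314 (Dnmt3a), and 12.4 and 0.559 points (Tet1). Those under 1 point are unmethylated tiles.

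At Tet2 the widest tile was on chromosome 3 from 133196000 to 133196999, 10.9 kb downstream of the start. It was at 86.1%, 88.6% and 98.8% in the libraries labelled leukemic, 79.7%, 86.0% and 93.8% in the nonleukemic double mutants, 88.6%, 99.4% and 98% in Tet2 knockout and 98%, 86.4% and 88.4% in Nras G12D. All 4 groups overlapped. Upstream of the Tet2 start, the CpG at 133218679 was at 71.6%, 45.5% and 54.8% in the libraries labelled leukemic, 82.8%, 92.9% and 77.4% in the nonleukemic double mutants, 100%, 100% and 81.0% in Tet2 knockout and 83.3%, 90.7% and 87.3% in Nras G12D. It was named after its values were seen, and although no library labelled leukemic overlapped with another group, its adjusted p was 0.326 against the nonleukemic double mutant, 0.203 against Tet2 knockout and 0.326 against Nras G12D.

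Averaged over all members of a locus, the difference of the labelled leukemic minus the nonleukemic libraries was -2.31 points at Dnmt3a, -2.11 at Tet3, -1.85 at Dnmt1, -1.12 at Tet1, -0.736 at Dnmt3b and -0.653 at Tet2, where members near 0% cannot fall. Tet2 knockout minus Nras G12D was 1.39 points at Dnmt3a, 1.01 at Tet2, 0.451 at Dnmt1, 0.272 at Tet3, 0.271 at Tet1 and 0.0713 at Dnmt3b. Without 1 library these ran from 1.23 to 1.65 points at Dnmt3a, 0.676 to 1.24 at Tet2, 0.267 to 0.673 at Dnmt1, 0.0651 to 0.662 at Tet3, -0.133 to 0.824 at Tet1 and -0.256 to 0.462 at Dnmt3b. The lowest value came without Nras G12D replicate 3 at Tet2, Nras G12D replicate 2 at Dnmt1 and Tet1, Tet2 knockout replicate 1 at Tet3 and Tet2 knockout replicate 2 at Dnmt3b, which was also negative without Nras G12D replicate 3 (-0.0260), and no direction is read at Tet1 and Dnmt3b. Weighted by coverage, the values were 4.35 points at Dnmt3a, 6.82 at Tet2, 3.76 at Dnmt1 and 4.81 at Tet3, so their order is not read either. Weighting divides a group's methylated reads by all its reads at the locus, so it also depends on how reads spread over CpGs. The unmethylated Tet2 tile at 133207000 held 5326, 3136 and 6030 reads in Tet2 knockout and 5825, 7378 and 6728 in Nras G12D.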

How the data were processed

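Reduced representation bisulfite sequencing was made of 12 LSK libraries, per the labels' protocols: MspI digestion, fragments of 150 to 400 bp, single reads of 50 bp. The submitters' processing notes name Bismark, with no version, and the mm9 build. The deposited tables give, per CpG position and strand, coverage as a read count and, in percent, the frequencies of C and of T. Every listed position has a coverage of at least 10. Methylated and unmethylated reads were computed from coverage and percent, rounded to whole reads. Reads of another base were left out, and the strands of a CpG were added. PCR copies count as reads, so coverage overstates the number of molecules.

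Group means are unweighted over libraries. The quasi-binomial model had the group as its only term, its Pearson dispersion was moderated with the method of limma's squeezeVar (the prior taken from features with a dispersion above 0) and floored at 1, and contrasts were F tests over the 1157487 autosomal CpGs or 105607 tiles. The model was tested on simulated data. Limma was run on log2 ratios with a pseudocount of 1. A promoter was placed where at least 10 and at least 50% of its CpGs, and every listed CpG in 300 bases, matched the spacing in 1 place of the chromosome. Without an mm9 annotation, exons and introns were not assigned. Text names every called tile and CpG (at most 5 a locus), the tile with the widest spread of group means per locus, and promoters. The members, lists and rules were chosen with earlier results of these data known. Fits without the libraries with Y chromosome positions were chosen after seeing the data. So was the fit without labelled leukemic replicate 3, Tet2 knockout replicate 2 and Nras G12D replicate 3, each with flips. That fit kept other libraries with flips: labelled leukemic replicates 1 and 2 (1005 and 79) and Tet2 knockout replicate 3 (157). Computations ran in R 4.3.3 with limma 3.58.1 and in Python 3.11.15 with pandas 2.3.3, SciPy 1.17.1 and NumPy 2.4.6.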

Additional observations from a re-analysis of the deposited data

Results flagged for a closer look

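A signal outside the tested CpGs was found at 6 Tet2 positions listed in every library labelled leukemic and every Nras G12D library and in at most 1 library of either other group. They lie on chromosome 3 from 133149153 to 133149261. Summed over positions, which share reads, they held 222 to 620 reads per library labelled leukemic, against 0 to 38 in the nonleukemic double mutants and 0 to 20 in Tet2 knockout. The cause was not tested.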

How the results depend on the processing

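No result changed direction in any alternative that gave it a value, apart from the Tet2 knockout minus Nras G12D averages over Tet1 and Dnmt3b given above, and at Dnmt3b also at a minimum of 20 reads (-0.0383). Counts below are for the libraries labelled leukemic against the nonleukemic double mutant, Tet2 knockout and Nras G12D in this order, with the share of all tiles or CpGs called. With limma, tile calls numbered 0, 0 and 0 (0%, 1.05% and 0% of all) and CpG calls 0, 0 and 0 (0.0251%, 0.121% and 0.00631%). On the 6 libraries compared, tile calls were 1, 1 and 0 (1.21%, 1.19% and 0.384%) and CpG calls 0, 0 and 0 (0% each). Without the 3 libraries with Y chromosome positions, tile calls were 1, 0 and 1 (0.751%, 0.179% and 0.864%) and CpG calls 0, 1 and 0 (0%, 0.109% and 8.64e-05%), and the lone Tet2 knockout library was taken to vary like the other groups. At 5 points in place of 10, 7 tiles were called against Tet2 knockout (10.6% of the members, 9.27% of all), 1 of them, at Dnmt1, higher in the libraries labelled leukemic. At 10 points in place of 25, CpG calls were 2 and 4 in the first comparisons (0.16% and 0.4% of all). A minimum of 20 reads gave 2 CpG calls against Tet2 knockout (0.305% of all) and 3 Tet2 positions in place of 1. With 10 reads in every library, 0 CpGs were called against the nonleukemic double mutant (0.124% of all), and the Tet3 CpG and tile gave no value. Leaving out each library in turn gave 0 to 3, 0 to 8 and 0 to 1 CpG calls (0.0013% to 0.425%, 0.041% to 0.868% and 8.64e-05% to 0.334% of all) and 1 to 5, 2 to 5 and 0 to 2 tile calls (0.972% to 7.35%, 4.02% to 11.2% and 0.431% to 4.97% of all). Against the nonleukemic double mutant, CpG calls were 3 without labelled leukemic replicate 1 or 2, 1 without Tet2 knockout replicate 2 and 0 without any other library. Against Tet2 knockout they were 4, 8 and 5 without labelled leukemic replicate 1, 2 or 3 and 0 without any other library, and against Nras G12D 1 without labelled leukemic replicate 1 or 2. Tile calls were 5 without labelled leukemic replicate 1 and 1 without its replicate 2 or any nonleukemic replicate against the nonleukemic double mutant, 2 without Tet2 knockout replicate 2 or 3 against Tet2 knockout, and 0 without Nras G12D replicate 2 or 3 and 2 without labelled leukemic replicate 1 or 3 against Nras G12D. Same-numbered replicates of different groups did not deviate together (correlations from -0.0152 to 0.0182 over 68913 CpGs), so no pairing by number was seen at these CpGs. Whether the numbers stand for a shared batch was not tested. The replicate block took CpG calls against the nonleukemic double mutant to 0 (0.055% of all) and gave 3, 4 and 1 tile calls (3.51%, 7.22% and 1.62%), which no longer include the Dnmt1 tile at 20706000. Weighting CpGs by coverage moved the locus averages of the labelled leukemic minus nonleukemic libraries to -3.29 at Dnmt1, -4.52 at Dnmt3a, -2.59 at Dnmt3b, -1.62 at Tet2 and -3.65 at Tet3. It moved Tet2 knockout minus Nras G12D to 3.76, 4.35, 1.40 and 6.82 at the same first 4 loci, 4.81 at Tet3 and 1.31 at Tet1. These weighted values also depend on how each group's reads spread over the CpGs of a locus. Unweighted, the labelled leukemic minus the nonleukemic average was -0.499 at Tet1 with a minimum of 20 reads and -1.12 at Tet3 with 10 reads in every library. The causes were not tested. The SD within groups averaged 5.79 points at members over 80%, with 3 libraries a group, and RRBS reads only CpGs near MspI sites.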

Other observations

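Both placed promoters of other genes in the windows were unmethylated too. Ccar1, at the far end of the Tet1 window, had group means of 0.0830%, 0.0569%, 0.273% and 0.244% over 24 CpGs in the labelled leukemic, nonleukemic, Tet2 knockout and Nras G12D libraries. B230319C09Rik starts on the opposite strand within the Tet3 promoter and had 0.139%, 0.469%, 0.106% and 0.261% over 25 CpGs in the same order. A further unmethylated tile of 34 CpGs lies at 20702000 on chromosome 9, 54.6 kb downstream of the Dnmt1 start, at 0.2% to 0.8% in the group means. Like the called Dnmt1 tile, it would lie past the end of the gene at equal length in mm9.

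Of the 2 members with a single-library flip, the Dnmt1 CpG at 20712950 was at 0% in Tet2 knockout replicate 2 and at 93.1% or more in the other 11 libraries, and the other is the internal Dnmt3a promoter CpG given above. The Tet1 CpG at 62353884, 1 of 3 in a tile 3.4 kb upstream of the start and named after its values were seen, was at 71.2% in labelled leukemic replicate 3 (66 reads) and at 0% to 4.35% in the other libraries that read it.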
